A study of Mus musculus with 4 samples.

Results

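Origin licensing was examined through 10 genes, Mcm2, Mcm3, Mcm4, Mcm5, Mcm6, Mcm7, Mcm10, Cdt1, Cdc6 and Orc1, chosen by gene symbol from the 56748 genes of the count table. All 10 were present once and passed the filter on low counts. The data were bulk RNA sequencing of mouse lung bearing metastases of 4T1, a triple-negative breast cancer line, in 2 samples from saline controls and 2 from animals given ADC/cmLumiOpto. The ADC was an anti-CD276 antibody coupled to the microtubule inhibitor mertansine (DM1), and cmLumiOpto was a gene therapy that depolarizes mitochondria of cancer cells with luminescent light. Female BALB/cJ mice, an immunocompetent strain, received luciferase-expressing 4T1 cells through the tail vein at 7 weeks of age, and the series description gives 3 weeks of treatment. The control is called PBS in the treatment label and saline in the sample titles. The treatment label reads cmLumi-Olap with CD276-DM1 at 16 mg/kg, whereas the study's methods give a lower dose and do not name Olap. The samples were labelled as tumor cells harvested from the lung, and the methods describe dissociated lung tissue.

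Licensing marks each replication origin once per cell cycle. The origin recognition complex (ORC), whose largest subunit is ORC1, binds DNA with CDC6, and CDT1 then helps to load the ring of MCM2 to MCM7, the inactive core of the replicative helicase. In S phase, CDC45, the GINS complex and MCM10 turn the loaded ring into a moving helicase, while geminin (Gmnn) holds CDT1 back. Transcription of these genes is high in cycling cells and low in quiescent ones, and MCM proteins are used as proliferation markers in tumors.

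The promoters of 4 members are shown because these genes are the extremes of the comparison below: Mcm6 and Cdt1 were lower by the most, Mcm5 by the least, and Orc1 was the one member that was higher. RefSeq promoter sequences (build GRCm38.p6) matched 9 of the 10 members, with Mcm4 unmatched. The 250 bases before the annotated start were searched on both strands for 5 strings of the E2F type, TTTCCCGC, TTTGGCGC, TTTCGCGC, TTTGGCGG and GGGCGGGAA, which resemble the sites of the E2F factors that drive G1/S genes. Capitals mark the matches, and each sequence reads 5′ to 3′ on the strand of its gene. The positions are chr1:128359706-128359955 (minus strand) for Mcm6, chr8:75109259-75109508 (plus) for Mcm5, chr4:108579204-108579453 (plus) for Orc1 and chr8:122567765-122568014 (plus) for Cdt1.
Mcm6: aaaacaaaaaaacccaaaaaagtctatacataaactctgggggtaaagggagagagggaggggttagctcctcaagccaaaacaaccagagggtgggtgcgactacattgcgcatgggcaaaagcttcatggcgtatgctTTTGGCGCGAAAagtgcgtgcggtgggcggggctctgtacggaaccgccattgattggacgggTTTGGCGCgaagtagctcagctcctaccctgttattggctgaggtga
Mcm5: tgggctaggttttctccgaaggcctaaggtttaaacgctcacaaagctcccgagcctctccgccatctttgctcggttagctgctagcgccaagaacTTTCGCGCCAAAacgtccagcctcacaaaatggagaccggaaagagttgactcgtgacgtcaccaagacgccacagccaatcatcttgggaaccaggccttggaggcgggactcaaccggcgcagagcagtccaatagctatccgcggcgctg
Orc1: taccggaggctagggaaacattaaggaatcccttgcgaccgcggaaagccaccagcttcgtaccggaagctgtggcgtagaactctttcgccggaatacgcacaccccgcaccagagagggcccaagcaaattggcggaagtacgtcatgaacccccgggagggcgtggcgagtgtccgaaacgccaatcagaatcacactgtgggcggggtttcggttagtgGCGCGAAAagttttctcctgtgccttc
Cdt1: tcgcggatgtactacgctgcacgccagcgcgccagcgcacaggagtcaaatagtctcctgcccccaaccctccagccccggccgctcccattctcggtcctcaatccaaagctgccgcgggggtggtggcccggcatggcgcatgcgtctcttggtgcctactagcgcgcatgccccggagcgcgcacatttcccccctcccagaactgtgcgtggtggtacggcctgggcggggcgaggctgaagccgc

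The Mcm6 promoter held 3 matches in 2 places, beginning 110 and 47 bases before the start, and at the first of them TTTGGCGC overlapped TTTCGCGC on the other strand. The Mcm5 promoter held the same overlapping pair of strings in 1 place, 153 bases before the start. Orc1 had a single match, 27 bases before the start, and Cdt1 had none. Mcm6, Mcm5 and Orc1, which differed in the size or direction of their log2 fold change, each carried a match. A link between matches and log2 fold changes was not tested. Matches were also found for Cdc6 and Mcm7, 138 and 165 bases before a start, so that 5 of the 9 matched members held a string, against 2.62% of 32851 promoters in the table. Members were counted here by gene, over 10 promoters, whereas the shares of all promoters count each promoter. The CCAAT box, which binds NF-Y, was present in 7 of the 9 members and in 33.8% of all promoters. TTTGAA, the CHR element of G2 and mitosis genes, was present in Mcm2 alone among the 9 and in 16.0% of all promoters. A match is a run of letters, and binding was not measured.

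Total counts lay between 15263375 and 19675436 per sample, so that a floor of 3 counts, for counting error only, corresponds to 0.152 to 0.197 CPM. CPM are counts scaled to the library total, here adjusted by edgeR's TMM factors, which ran from 0.973 to 1.04. The tissue labels were checked with marker genes. Epithelial genes of carcinoma cells, which lung epithelium shares (Krt8, Krt18, Epcam and 6 others), summed to between 2979 and 3466 CPM in the 4 samples. Genes of alveolar type 2 cells were present in every sample and summed to 1435 and 292 CPM in saline and 5297 and 4477 CPM after treatment, so RNA of lung cells was present beside that of the labelled tumor cells. In bulk samples, fewer cells of a type and less RNA per cell cannot be told apart. Nothing in the labels states a batch. The smallest two-sided p of an exact permutation of 2 against 2 samples is 0.333.

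Treated and saline samples were compared to ask whether the RNA of the licensing machinery differed after ADC/cmLumiOpto. In all, 9 of the members were lower and Orc1 was higher. The difference was between 1.21-fold and 1.69-fold for the lower genes and 1.55-fold for Orc1. For each of the 9 lower genes, the treated replicates were both under the lower saline replicate, an arrangement shared by 28.8% of the 15320 genes tested. Orc1 had both treated samples above both saline samples, as did 28.1% of the genes tested. By edgeR's quasi-likelihood (QL) F-test, with p-values adjusted over all genes by the Benjamini-Hochberg method, 0 of the 10 members had an adjusted p under 0.05, and the share of all genes was 0%. At an unadjusted p under 0.05, 6 of the 10 members were lower (Mcm2, Mcm3, Mcm4, Mcm6, Mcm7 and Cdt1) and 0 were higher, against 12.2% of all genes lower and 11.0% higher. Under DESeq2, 4 members were lower at an adjusted p under 0.05 (Mcm4, Mcm6, Mcm7 and Cdt1), beside 5.47% of the 13834 genes with an adjusted value. With the edgeR exact test there were 3 (Mcm4, Mcm6 and Cdt1), beside 3.68% of genes. The median log2 fold change of the members was -0.51, and that of all genes tested was 0.03. Without saline replicate 2, 3 members were lower at an unadjusted p under 0.05 (Mcm6, Mcm10 and Cdt1), beside 4.93% of all genes lower in that fit. Without ADC/cmLumiOpto replicate 1 there were 7, beside 7.77% of all genes.

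**Figure D1:**
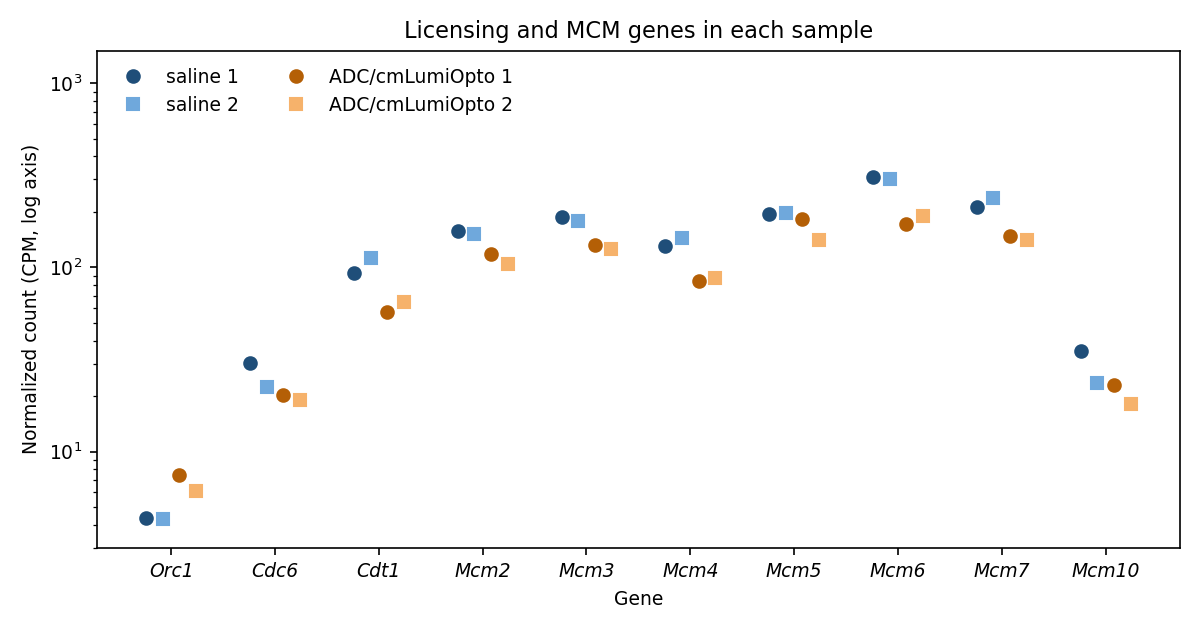
Normalized counts (CPM, log axis) of the 10 genes in each sample, with circles and squares for replicates 1 and 2, saline in blue and ADC/cmLumiOpto in orange. The orange points sit below the blue points for every gene but Orc1, where they sit above, and the gap is narrow for Mcm10 (23.0 against 23.4 CPM) and for Mcm5 (183 against 194 CPM).

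Gene positions are those of the count table (mm39). Among the subunits of the helicase ring, Mcm6 (ENSMUSG00000026355, chr1:128259327-128287401, minus strand) was at 309 and 301 CPM in saline replicates 1 and 2 and at 173 and 189 CPM in ADC/cmLumiOpto replicates 1 and 2. Both treated values lay well below both saline values, and replicates of a group were close to each other. The log2 fold change was -0.75 (standard error 0.15), with an adjusted p of 0.116 by edgeR QL and 0.00198 by DESeq2. An adjusted p of 0.116 was the smallest of any gene in the edgeR QL fit, and other genes shared it, such as Ticrr, Pole and Foxm1. The smallest unadjusted p of that fit was 1.51e-05, against 0.00224 for Mcm6. The log2 fold change of Mcm6 lay between -0.82 and -0.68 across the fits that each omitted 1 sample. Mcm4 (ENSMUSG00000022673, chr16:15441761-15455264, minus strand), which with MCM6 and MCM7 forms the catalytic trimer, was at 130.1 and 144 CPM in saline and 84.8 and 88.0 CPM after treatment. Both treated values were lower than the saline values by more than the replicates differed, at a log2 change of -0.67 ± 0.16 (SE). Mcm7 (ENSMUSG00000029730, chr5:138162845-138170684, minus strand), the third member of that trimer, was at 213 and 237 CPM in saline and 148 and 140.5 CPM after treatment, a log2 change of -0.64 ± 0.16 (SE). The edgeR QL adjusted p was 0.123 for both Mcm4 and Mcm7, and in DESeq2 it was 0.0154 and 0.0163. The annotated span of Mcm7 overlaps Cops6 by 64 bases and Ap4m1 by 421 bases, both on the opposite strand, and the sources do not state whether counting used strand. Mir25, Mir93 and Mir106b, the microRNA genes inside Mcm7, had 0 counts in every sample of these libraries made from poly(A) RNA.

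Mcm2 and Mcm3 were lower to a smaller extent. Mcm3 (ENSMUSG00000041859, chr1:20873192-20890536, minus strand) was at 189 and 178 CPM in saline and 133 and 125 CPM after treatment, a log2 change of -0.51 ± 0.16 (SE). Mcm2 (ENSMUSG00000002870, chr6:88860456-88875762, minus strand), whose product is phosphorylated by the CDC7 kinase when origins fire, was at 157 and 152 CPM in saline and 119 and 105 CPM after treatment, a log2 change of -0.47 ± 0.16 (SE). For both genes the treated replicates lay below the saline replicates, with edgeR QL adjusted p-values of 0.143 and 0.165. Mcm5 (ENSMUSG00000005410, chr8:75836197-75855067, plus strand), which forms the gate of the ring with MCM2, was at 194 and 197 CPM in saline and 183 and 141 CPM after treatment. The treated replicates differed from each other by more than replicate 1 differed from the saline samples. Its log2 fold change was -0.27 (standard error 0.18, edgeR QL adjusted p = 0.406). It was -0.09 without ADC/cmLumiOpto replicate 2 and -0.46 without ADC/cmLumiOpto replicate 1.

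Levels were compared between genes as CPM per kb of gene length. In saline samples the order was Mcm6 (65.4 ± 1.31, SD, n = 2), Mcm7 (50.9 ± 3.78), Mcm5 (48.9 ± 0.473), Mcm3 (48.8 ± 2.098), Mcm4 (38.2 ± 2.75) and Mcm2 (22.2 ± 0.528). Mcm7, Mcm5 and Mcm3 were neighbors whose replicate ranges overlapped, whereas Mcm6 stood above and Mcm2 below the rest of the ring. After treatment Mcm5 (40.6 ± 7.39 CPM per kb) and Mcm6 (38.8 ± 2.43) were the highest, with overlapping ranges, and Mcm2 (16.0 ± 1.42) was again the lowest subunit. Of the other members, Cdt1 (32.7 ± 4.31 CPM per kb in saline) lay between Mcm4 and Mcm2, and Cdc6 (5.05 ± 1.05), Mcm10 (3.80 ± 1.07) and Orc1 (1.25 ± 0.0125) lay below the ring, with overlapping ranges for Cdc6 and Mcm10. The same 4 genes held the same places after treatment, at 19.4 ± 1.62, 3.74 ± 0.157, 2.68 ± 0.448 and 1.94 ± 0.270. The sum over the 6 subunits was 272 and 277 CPM per kb in saline and 192 and 181 after treatment, 1.47-fold higher in saline. The quantities that follow were formed after the values were seen. Within that sum, the share of Mcm6 was 24.4% and 23.3% in saline and 19.3% and 22.4% after treatment. The share of Mcm5 was 17.8% in both saline samples and 23.8% and 19.6% after treatment. Shares of the other subunits differed less between groups, although those of Mcm2 and Mcm7 did not overlap either. Mcm2 made up 8.30% and 7.90% in saline and 8.87% and 8.33% after treatment. Mcm7 made up 17.7% and 19.4% in saline and 17.3% and 17.6% after treatment. The ratio of Mcm6 to Mcm5 counts, which does not depend on scaling between libraries, was 1.59 and 1.53 in saline and 0.946 and 1.34 after treatment. The groups did not overlap in the sum, in the shares of Mcm6 and Mcm5 or in the ratio. An exact permutation test of each gave a two-sided p of 0.333, the smallest it allows, and cannot reach the threshold.

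**Figure D2:**
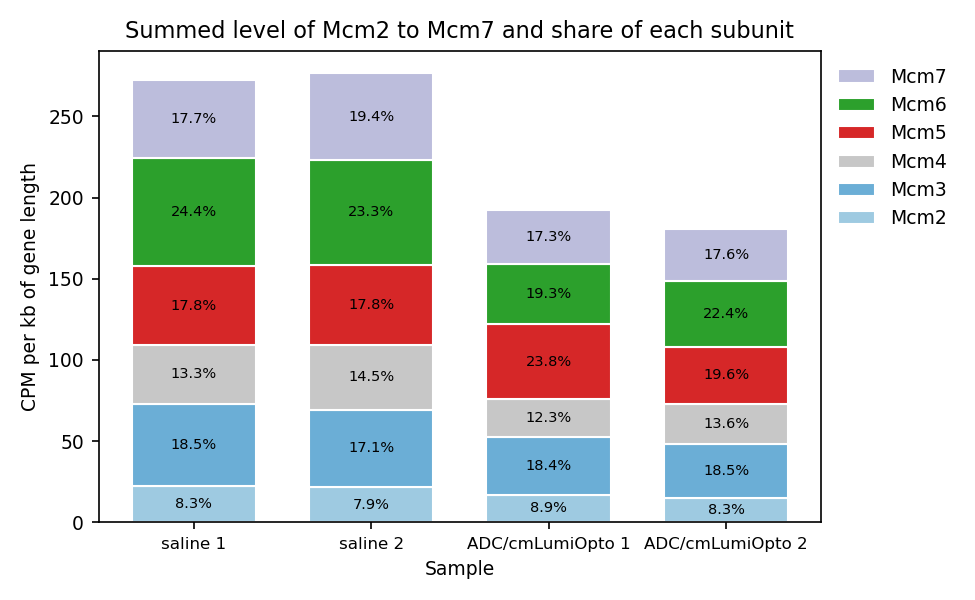
Stacked bars of the level of Mcm2 to Mcm7 (CPM per kb of gene length) in each sample, with the share of each subunit printed as a percentage of the sum. The treated bars reach 192 and 181 against 272 and 277 in saline, and the Mcm5 segment takes a larger share in both treated samples.

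Of the loading factors, Cdt1 and Cdc6 were lower and Orc1 was higher. Cdt1 (ENSMUSG00000006585, chr8:123294754-123300293, plus strand), which brings the MCM ring to ORC and CDC6, was at 93.0 and 112 CPM in saline and 57.4 and 64.6 CPM after treatment. Both treated values lay below both saline values. The log2 fold change was -0.75 (standard error 0.18), with an adjusted p of 0.123 by edgeR QL and 0.0154 by DESeq2. Gmnn, which encodes the inhibitor geminin, was at 20.7 and 22.6 CPM in saline and 28.6 and 27.8 CPM after treatment, in the opposite direction. Its log2 fold change was 0.38 (standard error 0.19, edgeR QL adjusted p = 0.267), and 0.11 once a trend on gene length was removed. The ratio of Cdt1 to Gmnn counts, formed after the values were seen, was 4.49 and 4.96 in saline and 2.01 and 2.32 after treatment. Cdc6 (ENSMUSG00000017499, chr11:98798627-98814766, plus strand), the ATPase that completes loading with ORC, was at 30.3 and 22.5 CPM in saline and 20.2 and 19.0 CPM after treatment. Saline replicate 1 stood apart, and the other 3 samples lay between 19.0 and 22.5 CPM. Its log2 fold change of -0.43 (standard error 0.22, edgeR QL adjusted p = 0.289) was -0.20 without saline replicate 1.

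Orc1 (ENSMUSG00000028587, chr4:108436620-108472030, plus strand) was the least abundant member, with 70 and 64 counts in saline and 131 and 125 counts after treatment. These were 4.37 and 4.31 CPM in saline and 7.41 and 6.09 CPM after treatment, and both treated samples were higher. The log2 fold change was 0.64 (standard error 0.33, edgeR QL adjusted p = 0.286), and it stayed between 0.50 and 0.77 across the fits that each omitted 1 sample. Gm12743, a noncoding gene that overlaps Orc1 on the opposite strand, had between 3 and 7 counts per sample. The remaining ORC subunits, Orc2, Orc3, Orc4, Orc5 and Orc6, had log2 fold changes between -0.24 (Orc3) and 0.02 (Orc4), with a median of -0.02. None of these 5 was at an unadjusted p under 0.05 by edgeR QL. Orc6, for example, was at 30.5 and 36.3 CPM in saline and 32.7 and 33.4 CPM after treatment. Orc1 made up 3.06% and 2.65% of the counts of Orc1 to Orc6 in saline and 4.92% and 4.14% after treatment.

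Mcm10 (ENSMUSG00000026669, chr2:4994525-5017602, minus strand), which is needed to start the loaded helicase, was at 35.03 and 23.4 CPM in saline and 23.0 and 18.2 CPM after treatment. Saline replicate 2 and ADC/cmLumiOpto replicate 1 were nearly equal. The log2 fold change was -0.51 (standard error 0.26, edgeR QL adjusted p = 0.288), and it was -0.19 without saline replicate 1 and -0.75 without saline replicate 2. Other firing factors split. Of 13 genes that convert the loaded ring into an active helicase, 6 were lower and 7 higher, with a median log2 fold change of 0.01 and 3 lower at an unadjusted p under 0.05. These 3 were Ticrr, Topbp1 and Dbf4, and 12.2% of all genes tested were lower at that p. Ticrr, which encodes the initiation factor treslin, was at 21.5 and 20.1 CPM in saline and 7.75 and 8.91 CPM after treatment, with no overlap and a log2 change of -1.32 ± 0.24 (SE, edgeR QL adjusted p = 0.116 and 8.76e-04 in DESeq2). Topbp1, a partner of treslin, and Dbf4, the activating subunit of the CDC7 kinase, had log2 fold changes of -0.50 and -0.59. Cdc7 itself was at 8.06 and 8.55 CPM in saline and 9.28 and 11.7 CPM after treatment. Cdc45 had a log2 change of -0.35 ± 0.20 (SE), whereas the GINS genes Gins1, Gins2, Gins3 and Gins4 were at 0.14, 0.01, 0.01 and 0.29, and the groups overlapped for all 4.

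**Figure D3:**
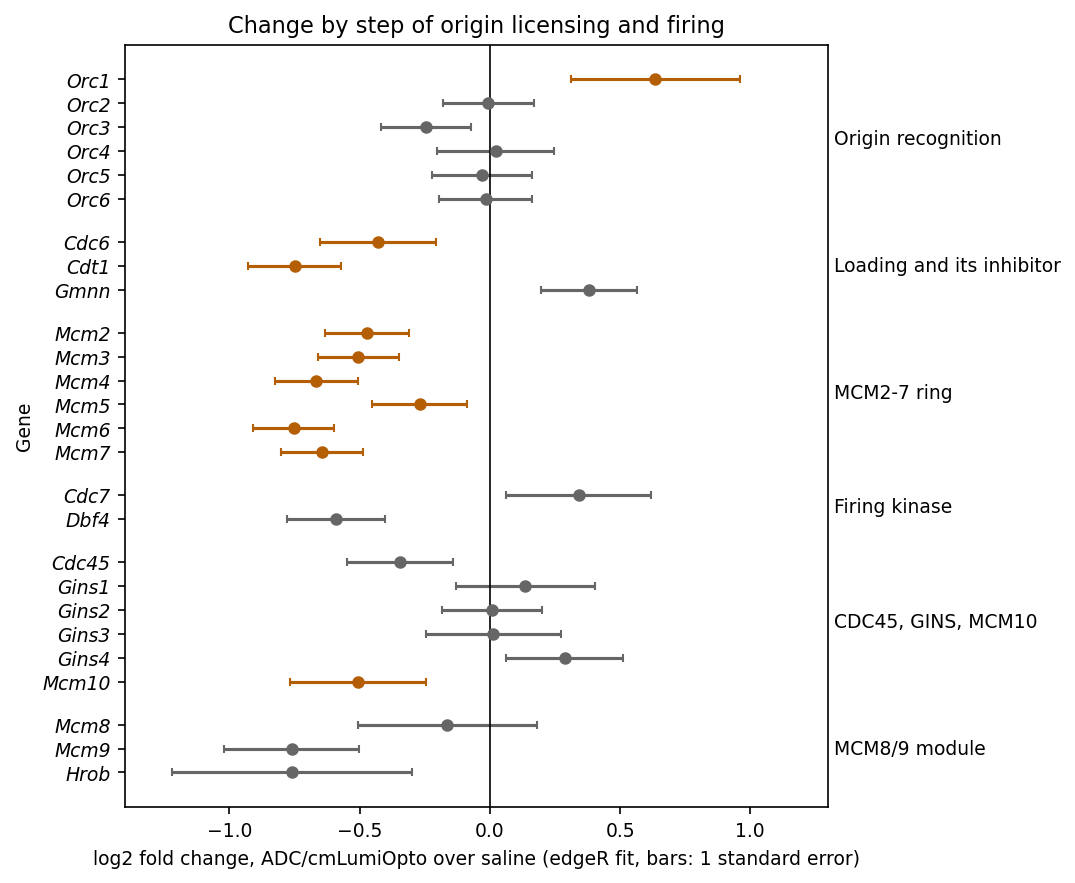
Log2 fold changes (ADC/cmLumiOpto over saline, edgeR fit) with 1 standard error, ordered by step of licensing and firing, the 10 members in orange and other genes in gray. The MCM ring, Cdt1, Cdc6 and Mcm10 lie left of 0, Orc1 and Gmnn lie right of it, and Orc2 to Orc6 and the GINS genes lie between -0.24 and 0.29.

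Factors that limit, support or reverse licensing were mixed, with 7 of 10 lower, 3 higher and a median log2 fold change of -0.08. The 3 with the smallest p were Kat7, Dtl and Ddb1, each lower at an unadjusted p under 0.05, as were 12.2% of all genes tested. Kat7, the histone acetyltransferase HBO1 that binds ORC and MCM2, had a log2 change of -0.75 ± 0.18 (SE). Dtl and Ddb1 encode parts of the ubiquitin ligase that destroys CDT1 in S phase. Dtl was at 53.5 and 75.1 CPM in saline and 38.9 and 35.4 CPM after treatment, a log2 change of -0.79 ± 0.21 (SE) that was -0.45 with the length trend removed, and Ddb1 had a log2 fold change of -0.49. Mcmbp, which binds free MCM proteins, was at -0.08 (edgeR QL adjusted p = 0.805). Of the MCM relatives outside the ring, Mcm9 was at 17.4 and 24.6 CPM in saline and 13.1 and 11.7 CPM after treatment, a log2 change of -0.76 ± 0.26 (SE). Its partner Mcm8 had a log2 fold change of -0.16 with overlapping groups. Hrob, which loads MCM8 and MCM9, was at 14.1 CPM in saline replicate 1 and between 5.59 and 5.89 CPM in the other 3 samples. Mcmdc2, a meiotic relative, had at most 2 counts in any sample and was not tested.

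The wider replication and cell cycle lists are given beside the members. Of all genes tested, 12.2% were lower and 11.0% higher at an unadjusted p under 0.05. Of 24 polymerase, clamp and fork genes, 16 were lower and 8 higher (median log2 fold change -0.23), with 6 lower and 1 higher at an unadjusted p under 0.05. Pole, Pola1 and Clspn had the smallest p. Pole, the catalytic subunit of the leading strand polymerase, was at 67.9 and 54.5 CPM in saline and 28.8 and 34.1 CPM after treatment, a log2 change of -0.96 ± 0.19 (SE). Pola1, the catalytic subunit of polymerase alpha, and Clspn, the fork mediator claspin, were at -0.80 and -0.89. Partner subunits of Pole and Pola1, picked out after the values were seen, had log2 fold changes nearer 0. Pole2 was at 0.27, Pola2 at -0.06, Prim1 at 0.11 and Prim2 at -0.04. In polymerase delta, the catalytic subunit Pold1 was at -0.40 and its partners Pold2 and Pold3 were at -0.37 and 0.04. Pcna, the sliding clamp that travels with the helicase, was at 127 and 151 CPM in saline and 154 and 129 CPM after treatment, with overlapping groups and a log2 change of 0.02 ± 0.18 (SE). Rpa3, the smallest subunit of the single-strand binding complex, was the gene of this list that was higher at an unadjusted p under 0.05, at 0.66. With the trend on gene length removed it was at 0.35 and that call was lost (edgeR QL unadjusted p = 0.119).

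Of 20 E2F and other G1/S genes, 15 were lower and 5 higher (median -0.22). At an unadjusted p under 0.05, 8 were lower and 1 higher, beside 12.2% and 11.0% of all genes tested. The repressor genes E2f8 and E2f7 and the histone chaperone gene Chaf1b had the smallest p, with log2 fold changes of -1.44, -1.16 and -0.75. E2f1, an activator of MCM and Cdc6 transcription, was at 42.1 and 44.0 CPM in saline and 34.1 and 37.2 CPM after treatment, a log2 change of -0.27 ± 0.16 (SE, edgeR QL adjusted p = 0.352). E2f2 was at 0.92, and at 0.46 without ADC/cmLumiOpto replicate 2, where its unadjusted p was no longer under 0.05. Among 20 G2 and mitosis genes, 18 were lower and 2 higher, with a median of -0.59. At an unadjusted p under 0.05, 13 were lower, beside the same 12.2% of all genes. Foxm1, Mki67 and Nek2 had the smallest p of that list, at -0.98, -0.93 and -0.88. The medians are descriptions, and the difference between the lists was not tested.

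**Figure D4:**
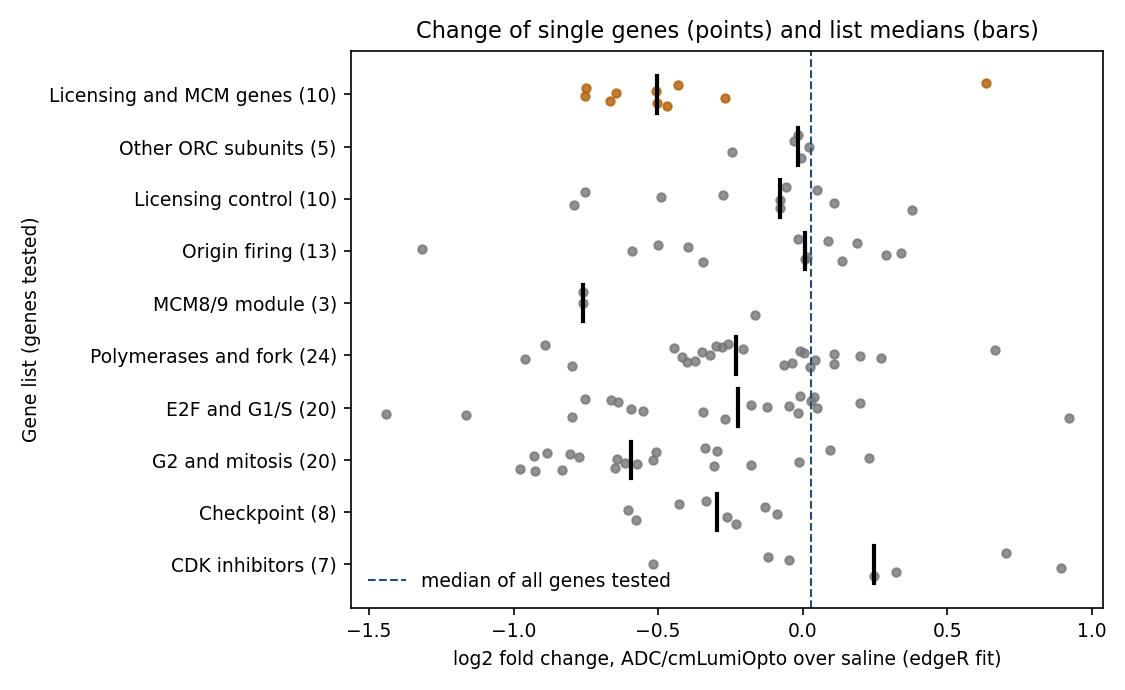
Log2 fold changes of single genes (points) in the members and 9 other lists, with list medians as black bars and the median of all genes tested as a dashed line. The members have a median of -0.51 and the G2 and mitosis genes one of -0.59, while the other ORC subunits (-0.02) and the firing factors (0.01) lie close to the dashed line at 0.03.

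Gene length moved with the differences. Over the 15320 genes tested, which are not independent replicates, gene length as tabulated and log2 fold change had a Spearman correlation of -0.34. The members ranged from 3140 bases (Cdt1) to 7692 bases (Mcm10). With the trend removed, the log2 fold changes of the 2 longest members moved toward 0, Mcm10 from -0.51 to -0.30 and Mcm2 from -0.47 to -0.30, whereas Cdt1 was at -0.82, Mcm6 at -0.70 and Orc1 at 0.59. The median of the members was then -0.43, and 5 of 10 were lower at an unadjusted p under 0.05, beside 9.52% of all genes in that fit. Outside the members, Ticrr (10007 bases) was at -1.06, Pole (11160 bases) at -0.67 and Topbp1 (11226 bases) at -0.20.

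Markers of the tumor and of other cells were read in the same samples. The epithelial carcinoma list, whose genes lung epithelium shares, summed to 3155 and 3466 CPM in saline and 3082 and 2979 CPM after treatment. Of its genes, 4 of 9 were higher and 5 lower, and the sum is not a measure of tumor cells alone. Fibroblast and mural genes summed to 5145 and 3541 CPM in saline and 1764 and 1456 CPM after treatment, and all 7 were lower. Alveolar type 1 genes (4 of 4 higher) went with the type 2 genes (5 of 5 higher), at 196 and 75.1 CPM in saline and 581 and 579 CPM after treatment. Club cell genes were at 1144 and 79.0 CPM in saline and 6180 and 2939 CPM after treatment (3 of 3 higher). Mature neutrophil genes were at 1091 and 444 CPM in saline and at 1109 and 7676 CPM in ADC/cmLumiOpto replicates 1 and 2 (5 of 5 higher). Genes of neutrophil precursors, which divide, were at 240.2 and 94.3 CPM in saline and 194 and 990.4 CPM after treatment (7 of 7 higher, with overlapping sums). T and NK cell genes were at 27.9 and 8.96 CPM in saline and 76.0 and 32.2 CPM after treatment (6 of 6 higher). Endothelial genes lay between 342 and 627 CPM with overlapping groups. Macrophage genes were at 644 and 660 CPM in saline and 557 and 501 CPM after treatment, with 2 of 5 higher and 3 lower. Erythroid genes were at 987 and 317 CPM in saline and 1553 and 1804 CPM after treatment, and the 3 tested were higher. B cell genes were low, at 4.50 and 1.28 CPM in saline and 6.34 and 6.57 CPM after treatment, and the 2 tested were higher. The part of these differences in the values of the licensing genes was not tested. Saline replicate 2, which had the lowest sums for the alveolar and club cell lists, and ADC/cmLumiOpto replicate 2, which had the highest neutrophil sum, were each left out in turn, and the median of the members was then -0.56 and -0.43. Fibroblast, alveolar and club cell sums still differed between the remaining samples of the groups, so these medians do not test that part.

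**Figure D5:**
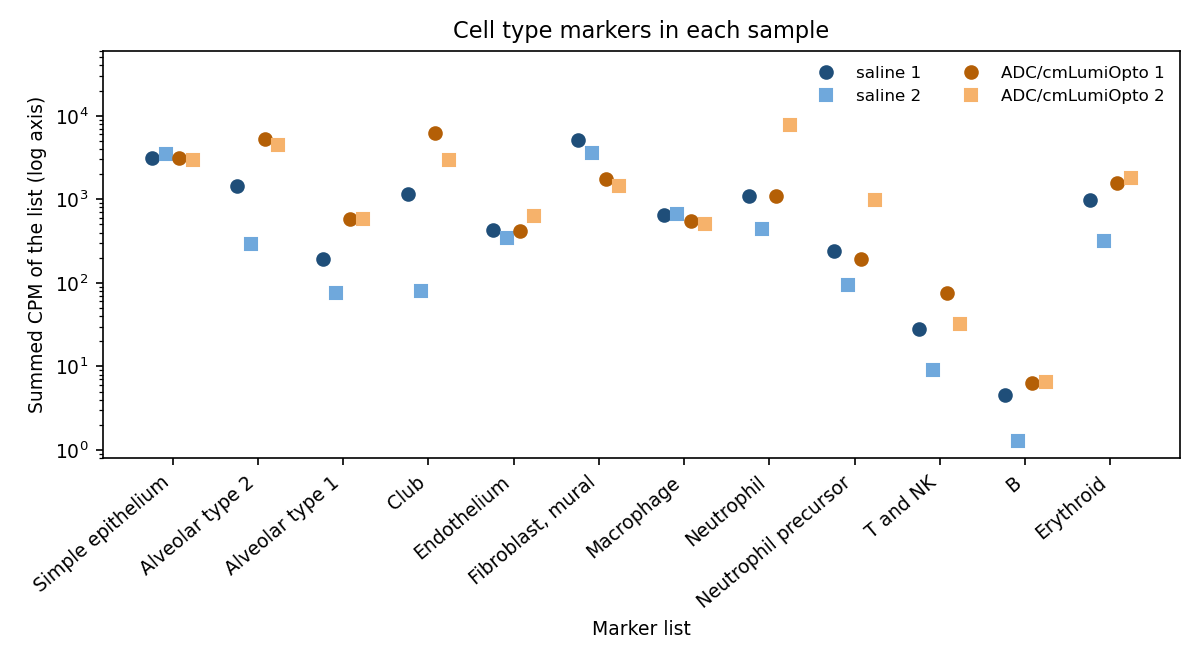
Summed CPM (log axis) of 12 lists of cell type markers in each sample, symbols as in the plot of the members. Fibroblast genes are lower and alveolar and club cell genes higher in both treated samples, and neutrophil genes peak in ADC/cmLumiOpto replicate 2. The epithelial carcinoma list, which lung epithelium shares, lies between 2979 and 3466 CPM throughout.

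Genes whose pattern over the 4 samples was most like the mean of the members were Mbtps2, Phf20, Nucks1, Slc38a10 and Smyd5. Likeness was the root mean square difference of centered log2 CPM, at 0.010 to 0.015 for these 5 among 10041 genes with a mean of at least 10 CPM. With 4 samples such likeness is common, and 574 genes lay within 0.1 of the members' mean, 11 of them from the replication and cell cycle lists. Among the members, Mcm2 (0.033) and Mcm3 (0.037) lay closest to the mean pattern, and Orc1 (0.53) and Cdt1 (0.22) lay farthest from it.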

How the data were processed

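RNA of 4 samples (2 saline, 2 ADC/cmLumiOpto) was compared. The deposited table holds unnormalized read counts, made by the authors, for 56748 genes, with gene lengths and positions. Alignment was with HISAT2, to GRCm38 per the study's methods and to mm39 per the submitters' processing notes, and the counting program is not given in the sources used here. Gene positions are those in the table, of which 1524 of 52125 shared identifiers, and 0 of the 10 members, matched GENCODE M21 of GRCm38. They are therefore read as mm39. Promoters are from RefSeq on GRCm38.p6.

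Counts were analyzed with edgeR 4.0.16 in R 4.3.3: filterByExpr (minimum count 10, minimum total 15), TMM, estimateDisp, glmQLFit and glmQLFTest, with Benjamini-Hochberg adjustment over 15320 genes and a threshold of 0.05. The filter removed genes low in all samples and kept all 10 members. A standard error is the log2 fold change divided by the square root of F. The prior count was 0.125 for fold changes and 2 for profiles across samples. The study's methods call the samples biological and give 4 per group. The deposited counts cover 2 per group, all of which were used, and whether they are among those 4 is not stated. Labels do not tie samples to animals, so p-values measure the spread between these samples, which may be technical. DESeq2 1.42.0, the exact test, other scalings and filters, protein-coding genes only, a replicate block, removal of a length trend (lowess span 0.3) and each sample left out in turn were the alternatives. With 1 sample left out, the lone sample of its group was assumed to vary like the others. The fits were tested on simulated data with 200 changed genes.

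The members, lists and alternatives were chosen with earlier results of these data known. Genes named were the members, the other ORC subunits, the MCM relatives, Gmnn, Mcmbp, Dtl, Cdc45, the GINS genes, Cdc7, Dbf4, the 3 genes of each other list with the smallest p and the 5 genes most like the members. Pcna, Rpa3, E2f1, E2f2, Pold1 and the polymerase partner subunits were added after their values were seen.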

Additional observations from a re-analysis of the deposited data

How the results depend on the processing

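Direction was kept under every alternative run: 9 members were lower and Orc1 higher in each. The count of all genes with an adjusted p under 0.05, 0 with edgeR's quasi-likelihood test (3553 at an unadjusted p under 0.05), was 1332 with DESeq2, 1170 with the edgeR exact test and 2259 without the expression filter, and it ranged from 0 to 206 when single samples were omitted (206 without saline replicate 1). For the members this count, also 0, was 4 with DESeq2, 3 with the exact test and 4 without the filter. The shares of all genes at that adjusted p were 9.63%, 7.64% and 8.84% in those fits, the last over 25563 genes. The number of members lower at an unadjusted p under 0.05 ranged from 3 to 7 with a sample left out, while the share of all genes lower at that p ranged from 4.93% to 12.9%. Their median log2 fold change, -0.51, was -0.42 with upper-quartile normalization and -0.43 with the length trend removed, and it ranged from -0.59 to -0.43 with a sample left out. The cause of these differences was not tested. Nothing in the labels says that a replicate number marks a shared animal, and the deviations of same-numbered samples had a Pearson's r of 0.099 over genes. With a replicate block, 607 of all genes and 0 members had an adjusted p under 0.05. Depth limits Orc1 most, at 64 to 131 counts per sample.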

Other observations

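All 8 genes of the replication checkpoint list were lower after treatment, with a median log2 fold change of -0.30. In each of the 8, the higher treated value was under the lower saline value, an arrangement found for 28.8% of the 15320 genes tested. Hus1, a subunit of the checkpoint clamp, and Atr, the kinase that senses stalled forks, were at -0.60 ± 0.20 and -0.58 ± 0.20 (log2 fold change ± SE). These 2 were lower at an unadjusted p under 0.05, beside 12.2% of all genes tested. With the length trend removed, the list median was -0.16 and 1 gene was lower at that p, beside 9.52% of all genes. Hus1 was then at -0.46 and Atr, the longest of the list at 23629 bases, at -0.15. Wee1, which restrains entry into mitosis, was at 44.96 and 67.5 CPM in saline and 43.9 and 39.7 CPM after treatment. Its log2 fold change was -0.43 ± 0.23 (SE), and -0.09 without saline replicate 2.

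Of 7 genes for CDK inhibitors, which block the cyclin-dependent kinases that act before and after licensing, 4 were higher and 3 lower, and 0 were at an unadjusted p under 0.05 in edgeR's quasi-likelihood test. Cdkn1c was at 5.37 and 6.33 CPM in saline and 7.19 and 14.5 CPM after treatment, and its log2 fold change of 0.89 was 0.30 without ADC/cmLumiOpto replicate 2. Cdkn1b was at 99.9 and 76.7 CPM in saline and 118 and 103 CPM after treatment. Cdkn2d was at 32.6 and 25.99 CPM in saline and 30.5 and 65.0 CPM after treatment, so its groups overlapped.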
